A study of Sus scrofa with 4 samples.

Results

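The transcripts described here are those of 10 genes, namely the 8 genes of the cohesin ring and its STAG subunits (SMC1A, SMC1B, SMC3, RAD21, REC8, STAG1, STAG2 and STAG3) and the shugoshins SGO1 and SGO2. They were taken by gene symbol from the deposited expression table, in which each symbol had 1 row with values, so that the members were 10 of the 16050 genes with values. The samples were porcine oocytes labelled as metaphase II, from ovaries collected at a slaughterhouse and matured in culture inside their cumulus-oocyte complexes. The Control libraries came from medium without added Cu, and the Cu libraries from medium with copper sulfate at 25 μg/mL. Culture to metaphase II lasted 42 to 44 h, and each library pooled 3 oocytes whose RNA was amplified by Smart-seq2, which makes full-length cDNA from the polyadenylated RNA of a few cells. Per-library values of 2 Control libraries (Control 1 and 2) and 2 Cu libraries (Cu 1 and 3) were analysed, out of 3 sets collected per group. Below, values of a pair of libraries follow the order of their replicate numbers. Breed, age and donors of the ovaries are not stated in the labels, and nothing says whether the libraries of a group came from separate cultures, so p-values measure only the spread between these libraries.

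Cohesin is a ring that holds sister chromatids together from DNA replication until anaphase. The ring consists of SMC1, SMC3, a kleisin subunit that closes it and a STAG subunit that binds the kleisin. Germ cells replace several of these parts by meiotic versions, so that SMC1B stands in for SMC1A, REC8 for the kleisin RAD21, and STAG3 for STAG1 or STAG2. In the oocyte, the protease separase cuts the kleisin on chromosome arms at the first division and at the centromeres at the second, and shugoshin with the phosphatase PP2A protects the centromeric kleisin in between. The metaphase II oocyte makes little or no new RNA, so its transcripts are a stored pool, and RNA levels do not measure the protein on the chromosomes.

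The values are FPKM, which scale fragments to transcript length and to the total, so levels can be set side by side between genes as a description. Differences between genes in amplification or mapping are not removed by this scaling. FPKM keep no read number, so how deeply each library was sequenced is not known. In these pools of oocytes, less RNA per cell and fewer contributing cells cannot be told apart. All 10 oocyte markers listed for the check, among them ZP3, GDF9 and OOEP, were at 1 FPKM or more in every library, with sums of 4285 to 5679 FPKM in the Control libraries and 5848 to 7675 FPKM in the Cu libraries. Of 16 cumulus and granulosa cell markers, 12 had values, with sums of 24.1 and 33.8 FPKM in Control and 32.6 and 38.0 FPKM in Cu, so that these sums overlapped between the groups. Of the 12, 9 stayed under 1 FPKM in every library, among them CYP19A1 and HSD3B1. FST and KITLG were at 1 FPKM or more in every library, and AMH was listed at 0 in every library. The part of either marker list in the results was not tested. Cu 1 stood apart from the other libraries. Over the 8541 tested genes, Pearson's correlation of log2(FPKM + 1) was 0.918 to 0.923 between Cu 1 and each other library and 0.959 to 0.976 between the others, a description across genes, which are not replicates. Values without Cu 1 are therefore given beside the results that rest on it.

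The levels of the members fell into distinct tiers that did not follow the division into meiotic and mitotic subunits. SMC1B, SGO1 and SMC3 were the most abundant, SGO2 came next, RAD21, STAG2, STAG1 and SMC1A were low, STAG3 lay close to 1 FPKM, and REC8 was listed at or next to 0. The means over the 4 libraries were 131 FPKM for SMC1B, 111 for SGO1, 93.0 for SMC3, 48.3 for SGO2, 11.7 for RAD21, 10.6 for STAG2, 5.88 for STAG1, 4.22 for SMC1A, 1.2 for STAG3 and 0.005 for REC8. Between neighbours in this order, the ranges over the libraries overlapped for SMC1B and SGO1, for SGO1 and SMC3, for RAD21 and STAG2, and for STAG1 and SMC1A. The other neighbours, SMC3 and SGO2, SGO2 and RAD21, STAG2 and STAG1, SMC1A and STAG3, and STAG3 and REC8, did not overlap, so their order held in 4 of 4 libraries.

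**Figure D1:**
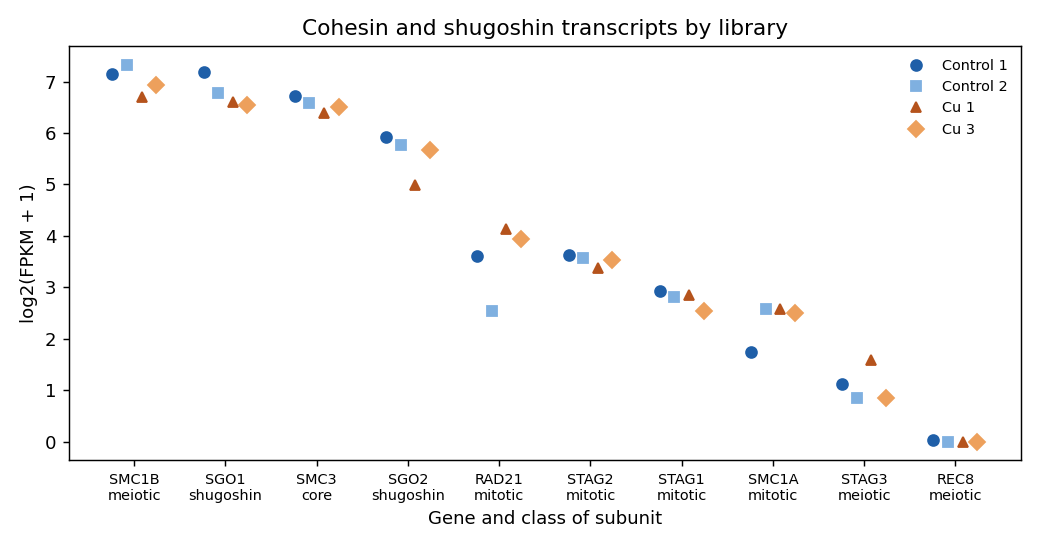
Level of each of the 10 genes, as log2(FPKM + 1), in Control 1, Control 2, Cu 1 and Cu 3, ordered by the mean over the libraries, with 1 point per library and no averaging. SMC1B, SGO1, SMC3 and SGO2 lie well above the mitotic subunits, STAG3 lies near 1 FPKM, and REC8 lies at or next to 0 in every library.

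SMC3 is the only SMC subunit of cohesin with no meiotic version, and every cohesin ring contains it. Its gene lies on chromosome 14 (chr14:120969629-121008924, Sscrofa11.1, as in the RefSeq gene table). SMC3 measured 105 and 94.8 FPKM in the Control pair, against 82.3 and 90.4 FPKM in the Cu pair. Both Cu libraries were below both Control libraries, with means of 99.7 ± 6.86 FPKM in Control and 86.4 ± 5.75 FPKM in Cu (SD, n = 2). The gap between the highest Cu and the lowest Control library was smaller than the spread within either group. Its log2 fold change was -0.20 with a standard error of 0.28 (limma, adjusted p = 0.879). Within a library, SMC3 was 0.577 to 0.762 times the sum of SMC1A and SMC1B, 4.67 to 5.59 times the sum of the STAG transcripts, and 4.99 to 19.8 times the sum of the kleisin transcripts RAD21 and REC8.

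SMC1B, the meiotic partner of SMC3, was the most abundant member on average. Its gene lies at chr5:3976098-4067148. SMC1B measured 141 and 159 FPKM in the Control pair, against 103 and 121 FPKM in the Cu pair, so the groups did not overlap and Cu was on the lower side. Among the 16050 genes with values it ranked 588 and 534 in the Control libraries and 859 and 699 in the Cu libraries, rank 1 being the highest level. The means were 150.0 ± 13.4 FPKM in Control and 112 ± 13 FPKM in Cu (SD, n = 2), a ratio of 0.748. On the log2 scale the difference was -0.42 with a standard error of 0.28 and a 95% interval from -1.10 to 0.26 (limma, adjusted p = 0.776). With each library left out in turn, it stayed between -0.53 and -0.30.

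SMC1A, the SMC1 of somatic cells, was a minor transcript in these oocytes. Its gene lies on the X chromosome (chrX:46143738-46202187). SMC1A measured 2.35 and 4.93 FPKM in the Control pair, against 4.97 and 4.62 FPKM in the Cu pair. Control 1 was the low library of those analysed, and the groups overlapped. The authors' means of SMC1A, with a further library per group, were 3.22 FPKM in Control and 4.59 FPKM in Cu. The Control mean was thus below the 3.64 FPKM of the analysed pair, so low SMC1A was not limited to Control 1. For SMC1A the log2 fold change was 0.38 with a standard error of 0.42 (limma, adjusted p = 0.847), and without Control 1 it was -0.03. SMC1B made up 98.4% and 97.0% of the summed SMC1 FPKM in Control 1 and 2 and 95.4% and 96.3% in Cu 1 and 3.

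RAD21 is the kleisin of mitotic cohesin. Its gene lies at chr4:21772821-21802453. RAD21 measured 11.2 and 4.79 FPKM in the Control pair, against 16.5 and 14.4 FPKM in the Cu pair. It was the only tested member that was higher in both Cu than in both Control libraries, and Control 2 was far below the other 3 libraries. The means were 8.01 ± 4.55 FPKM in Control and 15.5 ± 1.48 FPKM in Cu (SD, n = 2), a ratio of 1.93. The log2 fold change was 0.96 with a standard error of 0.46 and a 95% interval from -0.16 to 2.09 (limma, unadjusted p = 0.0814, adjusted p = 0.708). It was 0.43 without Control 2, 1.5 without Control 1 and 0.87 without Cu 1.

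REC8 is the meiotic kleisin and the substrate of separase in oocytes. Its gene lies at chr7:75118743-75127759, spans 9017 bases and has 2 transcript models in the RefSeq table. REC8 was listed at 0.02 FPKM in Control 1 and at 0 in Control 2, Cu 1 and Cu 3. The authors' means, which hold a further library per group not analysed here, were 0.02 FPKM for Control and 0 for Cu. REC8 was the only member that did not pass the filter of 1 FPKM in at least 2 libraries, so it was not tested and no fold is given. Without counts, an exact 0 can also be a failed estimate, so REC8 is reported only as listed at this level. The other meiotic kleisin gene, RAD21L1, had a row without values, so RAD21 held nearly all of the kleisin FPKM in the table.

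STAG3 is the meiotic STAG subunit, and STAG1 and STAG2 are those of somatic cells. The genes lie at chr3:8175908-8211898 (STAG3), chr13:77321872-77863533 (STAG1) and chrX:101476117-101617405 (STAG2). STAG3 measured 1.16 and 0.80 FPKM in the Control pair, against 2.02 and 0.81 FPKM in the Cu pair. Cu 1 was the high library, Cu 3 equalled Control 2 within 0.01 FPKM, and the groups overlapped. STAG3 passed the filter through 1 library of each group. Its log2 fold change was 0.25 with a standard error of 0.39 (limma, adjusted p = 0.902), -0.12 without Cu 1 and -0.04 after quantile normalization.

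STAG2 measured 11.3 and 10.9 FPKM in the Control pair, against 9.41 and 10.6 FPKM in the Cu pair. All 4 values lay close together, and although both Cu libraries were below both Control libraries, Cu 3 and Control 2 were only 0.32 FPKM apart. For STAG2 the log2 fold change was -0.14 with a standard error of 0.34 (limma, adjusted p = 0.937). STAG1 measured 6.59 and 5.97 FPKM in the Control pair, against 6.18 and 4.77 FPKM in the Cu pair, with overlapping groups. For STAG1 the log2 difference was -0.18 with a standard error of 0.36 (limma, adjusted p = 0.925). STAG2 was 1.52 to 2.22 times STAG1 within a library.

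SGO1 and SGO2 recruit PP2A to centromeres. SGO2 is known as the main protector of centromeric REC8 in mouse oocytes. SGO1 lies at chr13:7137891-7153202 and SGO2 at chr15:104099378-104150723. SGO1 measured 145 and 108 FPKM in the Control pair, against 96.55 and 92.2 FPKM in the Cu pair. Control 1 was the high library, and the Cu libraries lay close together below both Control libraries. The means were 127 ± 26.2 FPKM in Control and 94.4 ± 3.10 FPKM in Cu (SD, n = 2), a ratio of 0.743. The log2 fold change of SGO1 was -0.41 with a standard error of 0.30 and a 95% interval from -1.13 to 0.32 (limma, adjusted p = 0.780), and -0.20 without Control 1.

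SGO2 measured 59.6 and 53.1 FPKM in the Control pair, against 30.6 and 49.9 FPKM in the Cu pair. Both Cu libraries were on the lower side, but Cu 3 was much closer to the Control libraries than to Cu 1. The means were 56.3 ± 4.59 FPKM in Control and 40.2 ± 13.6 FPKM in Cu (SD, n = 2), a ratio of 0.715. On the log2 scale SGO2 differed by -0.51 with a standard error of 0.35 and a 95% interval from -1.38 to 0.35 (limma, adjusted p = 0.779). Without Cu 1 it was -0.17, and without Cu 3 it was -0.85. SGO1 exceeded SGO2 in every library, by 2.44 and 2.04 times in Control 1 and 2 and by 3.15 and 1.85 times in Cu 1 and 3.

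The design asks whether these transcripts differ between Cu-exposed and control oocytes. Of the 9 tested members, 5 had both Cu libraries below both Control libraries (SMC1B, SMC3, STAG2, SGO1 and SGO2), against 13.4% of all tested genes, and 1 had both above (RAD21), against 25.4% of all tested genes. These counts cover only the analysed libraries. The authors' means below, which hold a further library per group, lay closer together for SMC1B, SMC3, SGO1, SGO2 and RAD21. Taken as means over 3 libraries, they imply further values with which the groups of these members overlap. In limma's test 0 of 9 members had an adjusted p at or under 0.05, as did 0 of the 8541 tested genes (0.0%). At an unadjusted p of 0.05 there were 0 of 9 members, against 7.01% of all tested genes, and with a log2 fold change of 1.5 in addition again 0 of 9, against 1.87%. No other tool was run, since FPKM allow no count model. The median log2 fold change was -0.18 over the 9 members and 0.16 over all tested genes. Each 95% interval included 0, and the widest, that of RAD21, ran from -0.16 to 2.09.

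**Figure D2:**
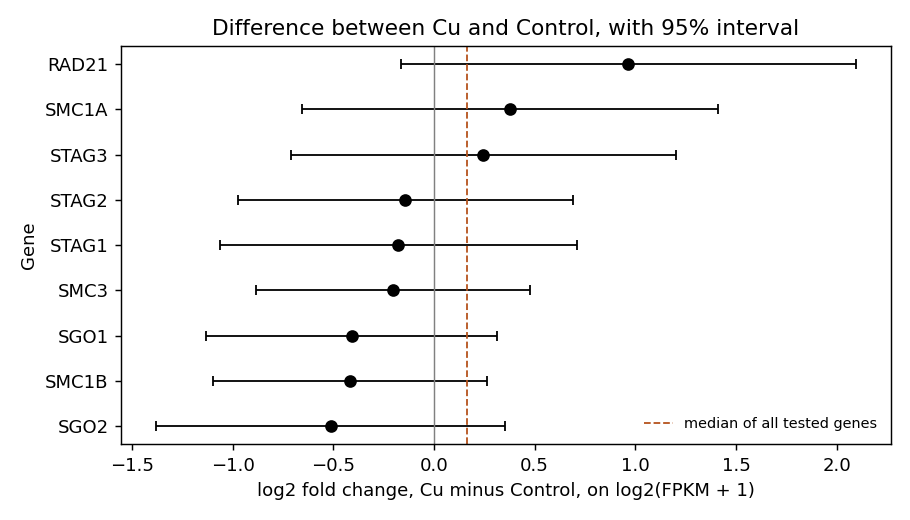
Log2 fold change of the 9 tested members, Cu minus Control on log2(FPKM + 1), as points with 95% intervals from limma, and the median of all tested genes as a dashed line at 0.16. Every interval includes 0, with RAD21 at 0.96 at one end and SGO2 at -0.51 at the other.

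The zero point of these fold changes depended on the scaling. Quantile normalization and median-of-ratios scaling moved the median of all tested genes by -0.23 and -0.21, to -0.07 and -0.04. Relative to the median of all tested genes, SMC1B was at -0.58 with the FPKM as deposited, -0.49 after quantile normalization and -0.62 after median-of-ratios scaling. SGO2 was at -0.68, -0.60 and -0.71 in the same order, and SGO1 at -0.57, -0.46 and -0.61. RAD21 was at 0.80, 0.81 and 0.78, and SMC3 at -0.37, -0.27 and -0.41. The direction of these 5 members was thus the same under each scaling. The decimals of the authors' means were those of a mean over 3 libraries in 16050 of 16050 genes, within 0.01 of a hundredth of summed FPKM, so these means hold a library per group that was not analysed here. The authors' means of Control and Cu, which carry no SD here, were 130 and 120 FPKM for SMC1B, 114 and 105 for SGO1, 97.4 and 91.5 for SMC3, 55.5 and 44.8 for SGO2, and 10.3 and 14.5 for RAD21. As ratios of Cu to Control these are 0.921 for SMC1B, 0.922 for SGO1, 0.939 for SMC3, 0.807 for SGO2 and 1.41 for RAD21, all closer to 1 than the ratios of 0.748, 0.743, 0.867, 0.715 and 1.93 over the 4 analysed libraries. For SMC1B, SGO1, SMC3 and SGO2 the authors' mean was lower than that of the analysed libraries in Control and higher in Cu. For RAD21 it was higher in Control and lower in Cu. The further libraries thus moved the groups of these 5 members towards each other. Separation of the groups was counted only in the analysed libraries. Taken as means over 3 libraries, the authors' means imply further values with which the groups of these 5 members overlap. Of the separated members, only STAG2 stays separated by these implied values. For STAG2 the ratio of the authors' means was 0.768, further from 1 than the 0.899 of the analysed libraries. The same held for STAG1, at 0.756 against 0.872, and for SMC1A, at 1.43 against 1.32.

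Within each library, the meiotic and the mitotic version of each part of the ring can be compared by FPKM. In the listed FPKM the meiotic version dominated only for SMC1, while the kleisin and STAG values were mostly those of mitotic versions. For the kleisin this rests on REC8, listed at or next to 0, which can also be a failed estimate, and on RAD21L1, without values. The ratio of SMC1B to SMC1A FPKM was 59.8 and 32.3 in Control 1 and 2 and 20.7 and 26.3 in Cu 1 and 3. STAG3 made up 6.08% and 4.52% of the summed STAG FPKM in Control 1 and 2 and 11.5% and 5.0% in Cu 1 and 3. REC8 made up 0.178% of REC8 and RAD21 in Control 1 and was listed at 0 elsewhere. Summed over the 3 meiotic members, which is nearly all SMC1B, the libraries had 142, 160.3, 105 and 122 FPKM in the order Control 1, Control 2, Cu 1 and Cu 3. The 4 mitotic members summed to 31.5, 26.6, 37.1 and 34.4 FPKM in the same order. In the analysed libraries, the meiotic sum was lower, and the mitotic sum higher, in both Cu than in both Control libraries. SMC1B and RAD21 carried these differences, and by the authors' means their groups overlap once the further libraries are included. The ratios of the authors' means of Cu to Control were 0.921 for SMC1B and 1.41 for RAD21. Without RAD21 the mitotic sum was 20.3, 21.8, 20.6 and 20.0 FPKM in the same order, with overlapping groups. These sums are descriptions, with no test.

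The ratios were compared between the groups on log2((meiotic FPKM + 1)/(mitotic FPKM + 1)). For SMC1B over SMC1A it was 5.40 and 4.76 in Control 1 and 2 and 4.12 and 4.45 in Cu 1 and 3, a difference of -0.80 with no overlap (exact two-sided permutation test, p = 0.333, adjusted p = 0.500 over 3 pairs). Without Control 1, the analysed library with the lowest SMC1A, the difference was -0.47. For REC8 over RAD21 the difference was -0.98 (exact two-sided permutation test, p = 0.333, adjusted p = 0.500), which follows RAD21 alone because REC8 was at or next to 0. Without Control 2, the library with the low RAD21, it was -0.45. For STAG3 over STAG1 and STAG2 it was 0.40 with overlapping groups (exact two-sided permutation test, p = 0.667, adjusted p = 0.667), and 0.04 without Cu 1. With 2 libraries against 2 the smallest p that this test can give is 0.333, so none of the pairs could reach 0.05.

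**Figure D3:**
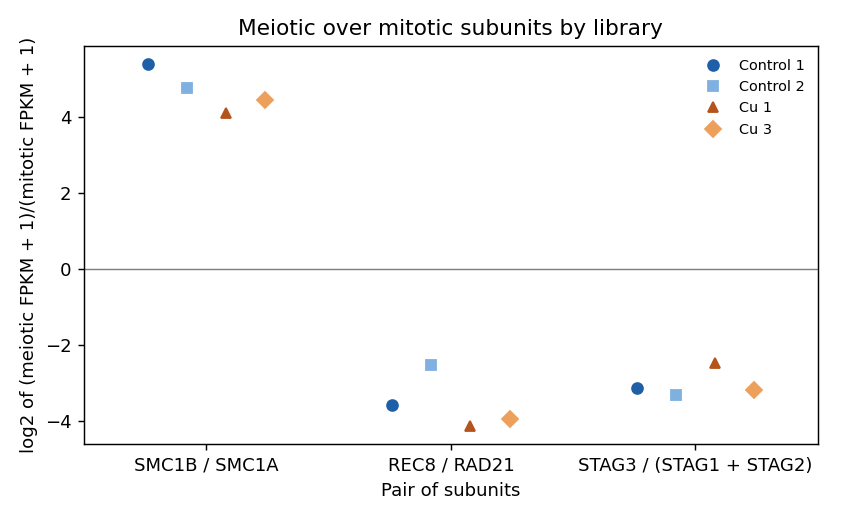
Log2 ratio of the meiotic over the mitotic subunit, with 1 added to each FPKM, in each of the 4 libraries for the SMC1, kleisin and STAG positions of the ring, with the line at 0 marking equal levels. SMC1B over SMC1A lies between 4.12 and 5.40, and both other pairs lie below -2 in every library.

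The factors that load, release and acetylate cohesin spanned a wide range of levels, with ESCO2 far above the rest. Of 10 listed genes, 9 had values and were tested, and 0 of 9 had a raw limma p at or under 0.05. PDS5A had no values. The median log2 fold change was -0.05, with 1 gene separated upward and 3 downward, against 25.4% and 13.4% of all tested genes. ESCO2, the acetyltransferase that locks SMC3 during replication, measured 530.0 and 496 FPKM in the Control pair, against 173 and 386 FPKM in the Cu pair. ESCO2 was thus above every ring subunit in every library, and Cu 1 was its lowest library. Its log2 fold change was -0.99 with a standard error of 0.41 (limma, adjusted p = 0.708), and it was -0.41 without Cu 1 and -1.56 without Cu 3. The authors' means of ESCO2, with a further library per group, were 488 FPKM in Control and 352 FPKM in Cu. These lay closer together than the means of the analysed libraries, 513 FPKM in Control and 280 FPKM in Cu. CDCA5, or sororin, which counteracts release, measured 1.35 and 1.28 FPKM in the Control pair, against 1.85 and 1.68 FPKM in the Cu pair, a log2 fold change of 0.26. Chosen after their values were seen, the loader NIPBL had 11.7 to 18.1 FPKM and the release factor WAPL had 37.4 to 44.05 FPKM over the 4 libraries, with log2 fold changes of -0.05 and 0.03.

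The transcripts of the protease that cuts cohesin and of its inhibitors differed in level by orders of magnitude. All 6 listed genes were tested, of which 1 passed an unadjusted p of 0.05 downward and 0 an adjusted p of 0.05. PTTG1, or securin, which inhibits separase, measured 15963 and 13481 FPKM in the Control pair, against 12701 and 17345 FPKM in the Cu pair, with a log2 fold change of 0.02. The separase gene ESPL1, named after its values were seen, measured 10.97 and 11.8 FPKM in the Control pair, against 22.1 and 8.81 FPKM in the Cu pair. Securin was thus 574 to 1969 times separase by FPKM within a library. CCNB1, the cyclin B1 that with CDK1 also inhibits separase, measured 1666 and 1433 FPKM in the Control pair, against 794 and 901 FPKM in the Cu pair. The Cu libraries of CCNB1 lay close together and well below both Control libraries, with a log2 fold change of -0.87, a standard error of 0.24 and an unadjusted p of 0.0114 (limma, adjusted p = 0.641). The authors' means, which hold a further library per group, were 1376 FPKM in Control and 1062 FPKM in Cu. These lay closer together than the means of the analysed libraries, 1550 FPKM in Control and 848 FPKM in Cu. CDK1 had 15.3 and 15.4 FPKM in Control 1 and 2, 299 FPKM in Cu 1 and 14.9 FPKM in Cu 3. Among the analysed libraries, its log2 fold change of 2.08 rested on Cu 1 and was -0.04 without it. The authors' means of CDK1, with a further library per group, were 16.6 FPKM in Control and 154 FPKM in Cu. These lay about as far apart as the means of the analysed libraries, 15.4 FPKM in Control and 157 FPKM in Cu. The high level of CDK1 in Cu was thus not limited to Cu 1 in the authors' full set.

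The partners of shugoshin at the centromere had a median log2 fold change of 0.35, with 17 of 21 listed genes tested, 5 separated upward and 2 downward, against 25.4% and 13.4% of all tested genes. At an unadjusted p of 0.05 there was 1 gene, upward, and 0 passed an adjusted p of 0.05. This gene was SET, an inhibitor of PP2A, which measured 121 and 56.5 FPKM in the Control pair, against 163 and 175 FPKM in the Cu pair, a log2 fold change of 1.02 with a standard error of 0.41 (limma, unadjusted p = 0.0490, adjusted p = 0.706). Control 2 was the low library of SET, and the log2 fold change was 0.47 without it and 1.56 without Control 1. The authors' means of SET, with a further library per group, were 141 FPKM in Control and 154 FPKM in Cu. These lay much closer together than the means of the analysed libraries, 88.9 FPKM in Control and 169 FPKM in Cu. SET has processed copies in mammalian genomes, so its reads could have been divided among them. PPP2CA, a catalytic subunit of PP2A, measured 202 and 274 FPKM in the Control pair, against 192 and 218 FPKM in the Cu pair, with overlapping groups. CENPC, a centromere protein, measured 28.0 and 33.2 FPKM in the Control pair, against 19.6 and 26.8 FPKM in the Cu pair, a log2 fold change of -0.39, or -0.18 without Cu 1. Chosen after its values were seen, BUB1, the kinase that marks the centromere for shugoshin, had 21.2 to 28.3 FPKM over the 4 libraries.

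The meiotic axis genes, whose products organize chromosomes along their cohesin cores in prophase, were still represented at metaphase II. Of 12 listed genes, 9 had values and 7 were tested, with a median log2 fold change of -0.04 and 0 of 7 past an unadjusted p of 0.05. SYCP3, an axis protein, measured 115 and 164 FPKM in the Control pair, against 180 and 252 FPKM in the Cu pair. Its groups did not overlap, and the log2 fold change was 0.63 with a standard error of 0.33 (limma, adjusted p = 0.728). SYCP1, which joins the axes, measured 5.20 and 5.77 FPKM in the Control pair, against 3.49 and 3.58 FPKM in the Cu pair, a log2 fold change of -0.51. The groups of SYCP1 did not overlap either, in the other direction. With a further library per group, the authors' means of Control and Cu were 171 and 219 FPKM for SYCP3. For SYCP1 they were 7.06 and 4.29 FPKM. The means of the analysed libraries were 139 and 216 FPKM for SYCP3 and 5.485 and 3.535 FPKM for SYCP1.

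**Figure D4:**
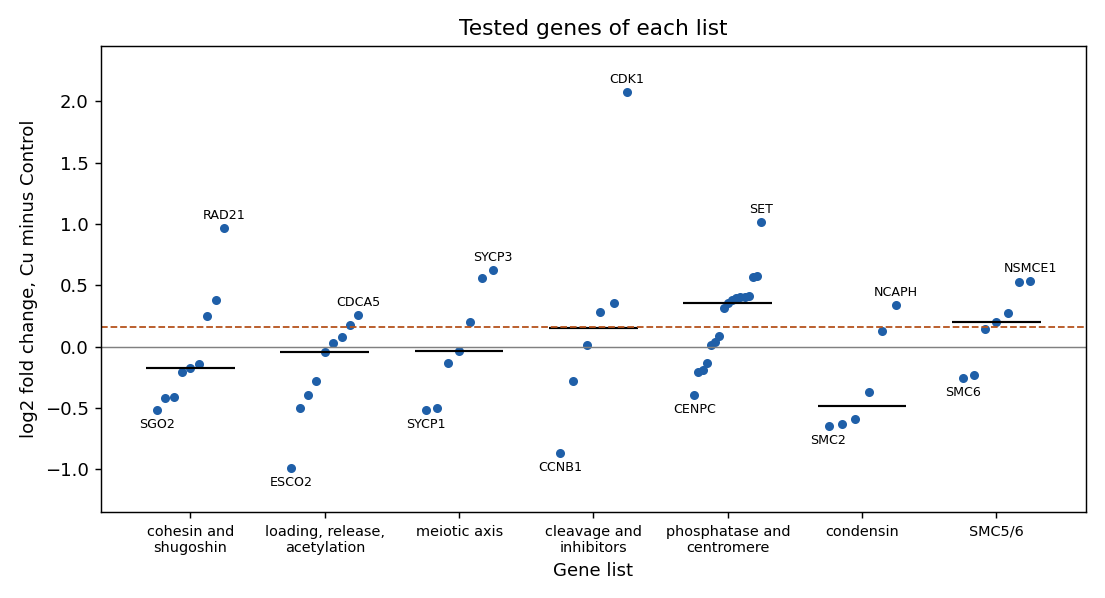
Log2 fold change, Cu minus Control on log2(FPKM + 1), of each tested gene of the 10 members and of the 6 gene lists, with a horizontal bar at each list's median, a dashed line at the median of all tested genes (0.16), and the lowest and highest gene of each list named. Most genes lie within 1 of 0, and CDK1, at 2.08, rests on Cu 1 among the analysed libraries.

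Genes whose levels followed the same profile over the libraries were looked up for SMC1B and STAG3, as REC8 was not tested. The measure was the root-mean-square difference between profiles of log2(FPKM + 1), each centred on its own mean over the 4 libraries. The closest to SMC1B were CD109, FAM45A and REV3L, each at 0.033, and 132 tested genes lay within 0.1. The closest to STAG3 were THOC3 at 0.016, FAM199X at 0.022 and SLBP at 0.027, and 149 tested genes lay within 0.1. The names are a description over 4 libraries only.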

How the data were processed

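The authors filtered the reads with SOAPnuke 1.5.2, mapped them with HISAT2 2.0.4 to the genome and with Bowtie2 2.2.5 to the coding genes, and calculated expression with RSEM 1.2.12. The submitters' processing notes name other tools, TopHat2 2.0.13 and Cufflinks 2.2.1, with build Sscrofa11.1, so which software made the table is not certain. The values the authors deposited are FPKM, rounded to 2 decimals, for 16050 of 30684 rows, and the authors' mean FPKM per group. Depth is unknown. Gene positions were taken from a RefSeq table of Sscrofa11.1 by gene identifier, and 16050 of 16050 were found in it. No sequence was used here.

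From these values, log2(FPKM + 1) was computed, 8541 genes that reached 1 FPKM in 2 or more libraries were kept, and Cu was compared with Control by limma 3.58.1 in R 4.3.3 (eBayes with a variance trend, Benjamini-Hochberg adjustment over all tested genes). The study's count model was not used, as FPKM are not counts. The added 1 makes fold changes of weak genes smaller. The function was tested on simulated data. Ratios of subunits were compared by exact permutation over libraries. Libraries were grouped by their titles.

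The members and gene lists were chosen with earlier results of these data known. Named from each list were genes with a raw p at or under 0.05 and a log2 change at or past 1.5 in size, the largest change in each direction and the most abundant gene, and for SMC1B and STAG3 the 3 genes with the closest profile (planned for REC8 too, which was not tested). The alternatives were another pseudocount, filter, scaling, variance model and fold limit, and leaving out each library.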

Additional observations from a re-analysis of the deposited data

How the results depend on the processing

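With 2 libraries per group, unknown depth and 1 library, Cu 1, apart from the others, only large differences could pass a test. In each of the 11 alternatives run, 0 members had a raw limma p at or under 0.05 together with a log2 fold change of 1.5 or more in size. No paired analysis was possible because the groups share only 1 replicate number. The cause of the shifts below was not tested.

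The median of the members, -0.18, was -0.38 after quantile normalization and -0.39 after median-of-ratios scaling, and -0.24 to -0.12 with each library left out. The 160 genes of all those tested that met both limits became 430 at a fold limit of 1 and 270 with a pseudocount of 0.1, and 91 (without Control 1) to 782 (without Cu 3) with a library left out. With a library left out, a fit has 1 library in an arm, which is assumed to vary like the others. Added after seeing the data, the 1 member separated upward became 1 to 3, the highest without Cu 3, and the 5 separated downward became 5 to 6. The ratio differences kept their sign in every alternative run, from -1.12 to -0.47 for SMC1B over SMC1A, -1.5 to -0.45 for REC8 over RAD21 and 0.044 to 0.76 for STAG3 over STAG1 and STAG2 with a library left out.

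Not all genes named were put through the alternatives, SMC5 and those picked by profile being among the exceptions. Of the genes that were, 11 turned their direction when a library was left out. Their log2 fold changes ranged from -0.034 (without Control 1) to 0.79 for SMC1A and from -0.12 (without Cu 1) to 0.62 for STAG3. Leaving out Cu 1 or Cu 3 gave the ends of the range for CDK1 (-0.042 and 4.19), NCAPH (-0.40 and 1.08), NSMCE1 (-0.24 and 1.32), ESPL1 (-0.34 and 0.90), NIPBL (-0.34 and 0.24), WAPL (-0.083 and 0.14), BUB1 (0.29 and -0.11) and PTTG1 (0.24 and -0.21). For PPP2CA they were -0.42 without Control 1 and 0.014 without Control 2. Quantile normalization gave -0.038 for STAG3, -0.039 for CDCA5, -0.051 for PTTG1 and -0.090 for BUB1 and WAPL. Median-of-ratios scaling gave -0.23 for PTTG1, -0.15 for BUB1 and -0.22 for WAPL. Without Cu 3, ESCO2, CDK1, CCNB1 and NCAPH had an adjusted p at or under 0.05 in limma's fit, which no member had in any alternative.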

Other observations

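The other SMC complexes of the chromosome were listed as well. Condensin, which compacts chromosomes for division, had 6 of 8 listed genes tested, with a median log2 fold change of -0.48, 3 genes separated downward and 0 upward, against 13.4% and 25.4% of all tested genes, and 0 with a raw limma p at or under 0.05. Its core subunit SMC2 measured 82.2 and 88.9 FPKM in the Control pair, against 52.3 and 56.2 FPKM in the Cu pair, a log2 fold change of -0.65 with a standard error of 0.28 (limma, adjusted p = 0.708). SMC4, the partner of SMC2, named after its values were seen, measured 56.1 and 60.3 FPKM in the Control pair, against 40.0 and 34.7 FPKM in the Cu pair, a log2 fold change of -0.63. NCAPG, a subunit of condensin I and the gene of the list with the highest mean over the 4 libraries though below SMC2 in both Control libraries, measured 74.6 and 84.7 FPKM in the Control pair, against 60.2 and 62.3 FPKM in the Cu pair. In these 3 genes both Cu libraries lay close together below both Control libraries. The authors' means of Control and Cu, with a further library per group, were 71.6 and 62.5 FPKM for SMC2. For SMC4 they were 51.8 and 41.3 FPKM. These lay closer together than the means of the analysed libraries, 85.5 and 54.3 FPKM for SMC2 and 58.2 and 37.4 FPKM for SMC4. For NCAPG they were 81.55 and 63.85 FPKM, near the 79.65 and 61.2 FPKM of the analysed libraries. NCAPH, the kleisin of condensin I, measured 7.72 and 6.39 FPKM in the Control pair, against 16.0 and 5.07 FPKM in the Cu pair. Among the analysed libraries, its log2 fold change of 0.34 thus rested on Cu 1. The authors' means of NCAPH were 6.72 FPKM in Control and 9.94 FPKM in Cu, near the 7.055 and 10.545 FPKM of the analysed libraries.

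The SMC5/6 complex, which acts in DNA repair, had 7 of 8 listed genes tested, with a median log2 fold change of 0.20, 2 genes separated upward and 2 downward, against 25.4% and 13.4% of all tested genes, and 0 with a raw limma p at or under 0.05. Its gene with the highest mean over the 4 libraries was SLF1, which helps to bring the complex to damaged DNA, with 139 and 129 FPKM in the Control pair, against 117 and 111 FPKM in the Cu pair. SMC6, a core subunit, measured 16.9 and 14.9 FPKM in the Control pair, against 12.8 and 13.4 FPKM in the Cu pair, a log2 fold change of -0.26. Its partner SMC5, named after its values were seen, measured 4.81 and 3.83 FPKM in the Control pair. In the Cu pair SMC5 measured 3.86 and 6.07 FPKM, with overlapping groups and a log2 fold change of 0.15. NSMCE1, a subunit of the complex, measured 0.94 and 3.51 FPKM in the Control pair, against 6.38 and 1.5 FPKM in the Cu pair, with overlapping groups and a log2 fold change of 0.54.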
